A study of Mus musculus with 3 samples.

Results

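The receptors for glutamate, GABA and glycine were described in neurospheres, the floating colonies that neural precursor cells form in culture. Genes were chosen by symbol: probe sets that carried a single gene symbol of the ionotropic glutamate (Gria, Grik, Grid, Grin), metabotropic glutamate (Grm), GABA (Gabr, Gabbr) or glycine (Glra, Glrb) receptor series. The rule gave 47 of 22180 named genes, measured by 52 of 41345 probe sets. Of these, 46 encode receptor subunits, and Grid2ip encodes a scaffold protein that binds a delta receptor and was matched by its symbol. Some subunits of these families, Grin1 among them, were not analysed here.

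The series holds 3 arrays of 1 group. Cells from the ventricular-subventricular zone, the precursor region that lines the lateral ventricles, came from wild-type (WT) CD1 mice labelled P8, with a culture protocol that names postnatal day 7 or 8. They were seeded at 10 cells per microlitre and grown for 7 days with 10 ng/ml FGF, 20 ng/ml EGF, 2 µg/ml heparin, 2% B27 and 0.5 mM L-glutamine. No other genotype, treatment or time is part of the series. Pups were cultured separately, but the labels do not tie an array to a pup, so p-values rest on array-to-array variation that may be purely technical.

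Glutamate, GABA and glycine act on ion channels built from several subunits and, for glutamate and GABA, also on receptors coupled to G proteins. AMPA and kainate receptors carry fast excitatory currents, and NMDA receptors usually need glutamate and a glycine-site ligand together. GABA-A and glycine receptors are chloride channels. In the ventricular-subventricular zone, GABA released by neuroblasts is known to act on GABA-A receptors of neighbouring stem cells and to restrain their division. Which subunits a cell transcribes limits the receptors it can build, and that is the question put to the 3 arrays.

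With a single group, each gene was set against unspecific signal. On each array the reference level was set at the 95th percentile of the signals of 1405 nose receptor probe sets (olfactory and vomeronasal genes). It was 5.63, 5.53 and 5.71 on arrays 1, 2 and 3 (log2 signal). A gene was called above it at an adjusted p under 0.05 in limma's one-sided moderated test over all genes. Of all 22180 genes 59.1% were above, and 58.7% were above and also exceeded the level on each array. Of the 47 receptor-series genes 29 (61.7%) were above, a share near that of all genes, and all 29 exceeded the level on each array. Of the other 18, 15 lay under it on all 3 arrays. The median signal of the 47 genes was 6.19, against 6.39 for all genes.

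The labelled cells were set beside marker genes. These lists were chosen with earlier results of these data known, so the counts are no independent check. Over all genes, 59.1% were above the reference level. All 7 markers of stem cells and radial glia, all 4 measured of transit-amplifying precursors, all 5 of neuroblasts, all 4 of astrocytes and all 4 of oligodendrocyte precursors were above the reference level. Of 6 mature neuron markers 3 were above (Rbfox3, Syt1 and Snap25), while the neurofilament genes Nefl and Nefm and the transporter gene Slc17a7 were not. Of 4 markers each, 1 was above for mature oligodendrocytes, ependymal cells and endothelial cells, and 2 for microglia. The calls of Syt1, of the microglia markers Cx3cr1 and P2ry12 and of the endothelial marker Kdr ended at the 99th-percentile level. Transcripts in whole cultures do not show which cells held them, and fewer cells of a type and less RNA per cell cannot be told apart.

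**Figure D1:**
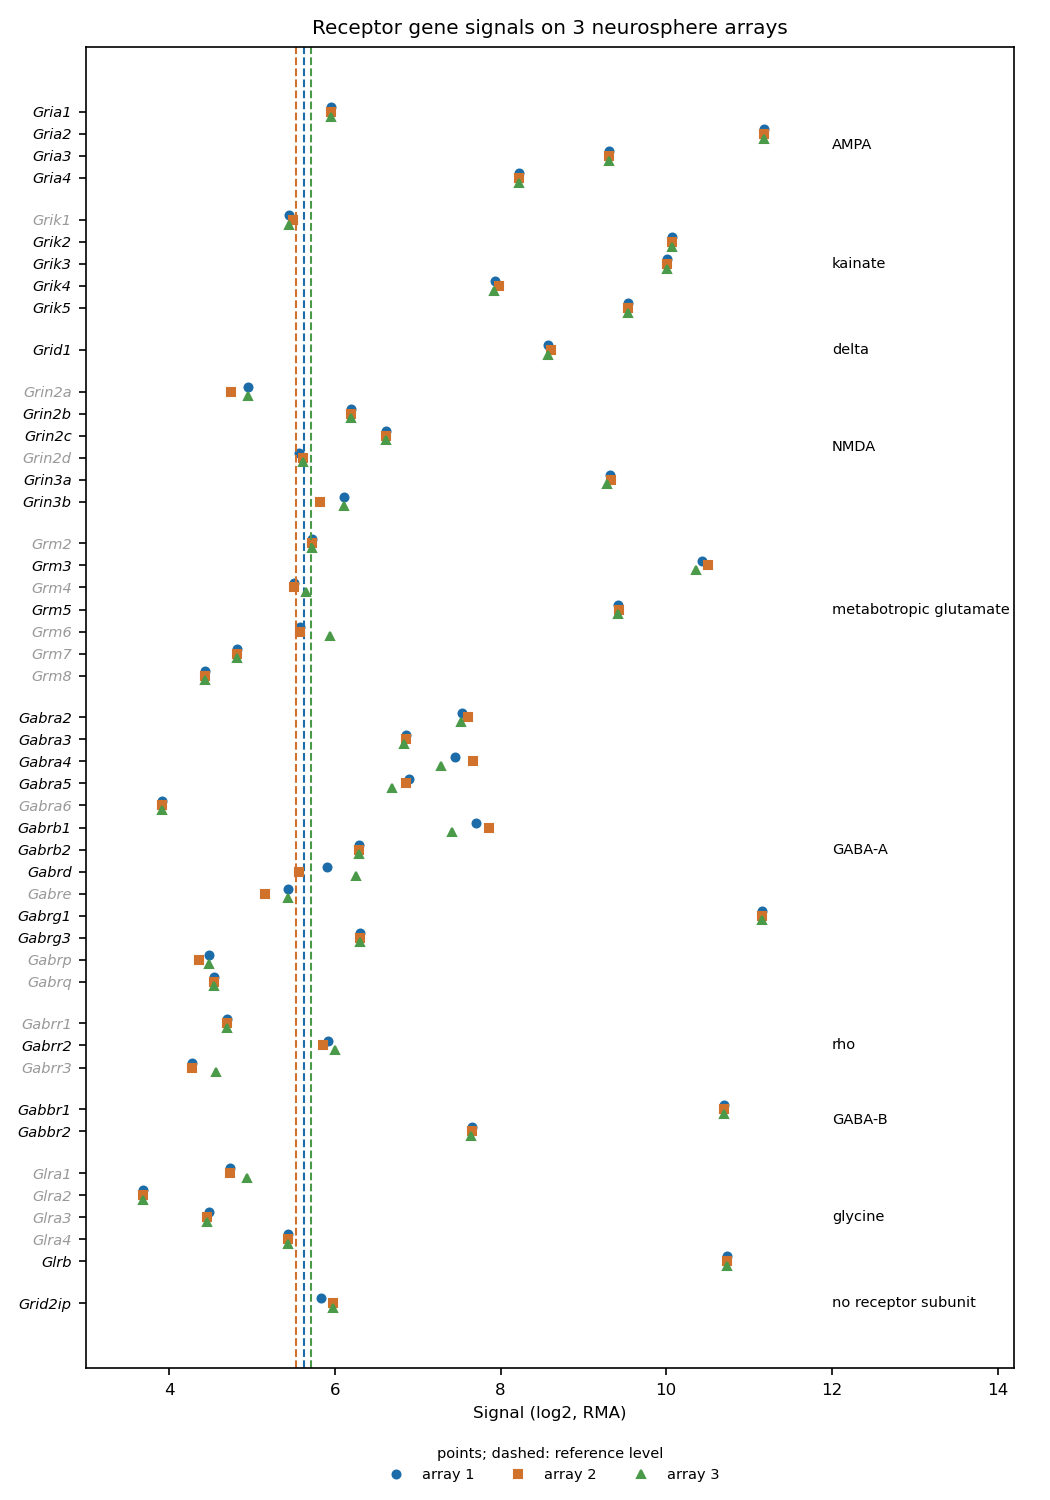
Signal of each receptor-series gene on arrays 1, 2 and 3 (log2, RMA) by family. Dashed lines are the reference levels of the same arrays (5.63, 5.53 and 5.71), gene names in black are the 29 above the level and names in grey the 18 not above; signals of different genes are not comparable because their probes differ.

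AMPA receptor genes were all called. All 4 measured subunits, Gria1 to Gria4, were above the reference level, beside 59.1% of all genes. Gria2, whose edited product keeps AMPA receptors nearly closed to calcium, had 11.18 on each of the 3 arrays, a margin of 5.55 ± 0.0903 over the reference level (SD, n = 3). Gria3 had 9.32, 9.32 and 9.31, and Gria4 had 8.22 on each array. All 3 of these genes lay at least 2.50 over the level on every array. Gria1 had 5.95 on each array, a margin of 0.33 ± 0.0903 (limma adjusted p = 2.17e-05), and stood close to it. Signals are given to 2 decimals. Where a signal was the same on all arrays, the SD of its margin is that of the reference levels alone. By the assembly rule used, each of the 4 subunits was counted alone and with each other subunit, which gave 4 single-subunit forms and 6 pairs. How well each form would work as a channel was not tested. At the 99th-percentile level the Gria1 call ended (margin -0.45) and 3 pairs, all of Gria2, Gria3 and Gria4, were left. At that level 44.9% of all genes were above.

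Among kainate receptor genes, 4 of 5 were above the reference level, beside 59.1% of all genes. Grik2 (10.07 on each array) and Grik3 (10.01 on each array) encode subunits that form channels by themselves. Grik4 (7.93, 7.98 and 7.93) and Grik5 (9.53 on each array) encode the high-affinity subunits, which work only beside a subunit of the first kind. All 4 exceeded the level by at least 2.21 on every array. Grik1, another subunit that can act alone, had 5.45, 5.49 and 5.45 and lay under the level on all 3 arrays (margin -0.16 ± 0.115). The possible receptors were therefore Grik2 or Grik3 alone, both together, and each of them with Grik4 or Grik5, a total of 7 of the 12 that the 5 genes could give.

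Grid1, a delta subunit that binds cerebellin proteins rather than working as a glutamate-gated channel, had 8.58, 8.61 and 8.58 and was above the level with a margin of 2.96 ± 0.106. Grid2ip, the scaffold gene, had 5.83, 5.98 and 5.98 and was above by 0.30 ± 0.127 (limma adjusted p = 9.05e-05). That call ended at the 99th-percentile level.

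NMDA receptor genes were mixed, with 4 of 6 above the reference level (66.7%), a share near the 59.1% of all genes. At the 99th-percentile level, and with a reference of bitter taste receptor, keratin-associated protein and defensin genes, 1 of the 6 was above (Grin3a). The calls of Grin2b, Grin2c and Grin3b ended. Under these alternatives 44.9% and 43.5% of all genes were above, in that order. Grin3a, which encodes a subunit that lowers calcium entry and is known from young neurons and glia, had 9.32, 9.34 and 9.29 (margin 3.69 ± 0.117). Grin3b had 6.11, 5.83 and 6.11 (margin 0.39 ± 0.0954, limma adjusted p = 5.30e-07). Thus Grin3a was far above the level on each array and Grin3b close to it, lowest on array 2.

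The Grin2 genes encode the glutamate-binding subunits that set the kinetics of NMDA receptors. Grin2b had 6.19 and Grin2c 6.62 on each array, with margins of 0.57 ± 0.0903 and 0.99 ± 0.0903. Both were above by 1 of their 2 probe sets. The other probe set read 4.70 for Grin2b and 4.34 for Grin2c on every array, under the reference level, and with the median over probe sets neither gene was above (margins -0.18 and -0.14), beside 58.5% of all genes (58.2% on every array). Grin2a had 4.95, 4.74 and 4.95, under the level throughout. Grin2d had 5.56, 5.61 and 5.61, over the level on array 2 alone (margin -0.03 ± 0.0957). Every NMDA receptor also needs the Grin1 subunit. Without a value for it no NMDA combination could be counted, although Grin2 and Grin3 genes were called.

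Of the 7 measured metabotropic glutamate receptor genes only Grm3 and Grm5 were above the reference level, beside 59.1% of all genes. Grm3, a receptor that lowers cyclic AMP and is abundant in glia, had 10.43, 10.50 and 10.36 (margin 4.81 ± 0.163). Grm5, coupled to calcium release and known from astrocytes and precursors, had 9.41, 9.43 and 9.41 (margin 3.79 ± 0.0983). Both lay at least 3.70 log2 units over the level on every array, while the other 5 exceeded it by at most 0.23 on any array. Grm2 had 5.73 on each array, over the level on all 3 but by only 0.01 on array 3, and did not pass (margin 0.10 ± 0.0903, limma adjusted p = 0.152). Grm6, the receptor of retinal bipolar cells, had 5.58, 5.58 and 5.94 and did not pass (margin 0.08 ± 0.139, adjusted p = 0.253), and its other probe set read 4.22. Grm4 (5.50, 5.50 and 5.65), Grm7 (4.82 on each array) and Grm8 (4.43 on each array), presynaptic receptors of neurons, were under the level on all 3 arrays. The dimers possible were those of Grm3 and of Grm5, 1 from the group that inhibits cyclic AMP and 1 from the group that acts through phospholipase C. With the 90th percentile in its place 5 of the 7 genes were above, against 66.7% of all genes (66.2% on every array).

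GABA-A receptors are usually built from alpha subunits, beta subunits and a further subunit, most often gamma. Of 13 measured GABA-A genes 9 were above the reference level (69.2%), beside 59.1% of all genes. Gabrg1, a gamma subunit found in glia and immature cells, had 11.16 on each array (margin 5.53 ± 0.0903). Among the alpha subunits, which shape the affinity for GABA, Gabra2 had 7.54, 7.60 and 7.52, Gabra3 6.86, 6.86 and 6.84, and Gabra4 7.45, 7.66 and 7.28. Gabra5 had 6.90, 6.85 and 6.69. The alpha subunits of these 4 genes were thus all above, by 0.98 or more on every array, and Gabra6, a cerebellar granule cell gene, was not (3.91 on each array).

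Beta subunits are needed for assembly and surface transport. Gabrb1 had 7.71, 7.86 and 7.41 (margin 2.04 ± 0.317) and Gabrb2 6.29 on each array (margin 0.67 ± 0.0903). Of the further subunits, Gabrg3 had 6.31 on each array (margin 0.68 ± 0.0903). Gabrd, the delta subunit of receptors outside synapses, had 5.90, 5.57 and 6.26, the widest spread of the 47 genes (SD 0.344). Its margin was 0.27, 0.04 and 0.55 on arrays 1, 2 and 3 (mean 0.29 ± 0.254, limma adjusted p = 1.96e-04), so it barely exceeded the level on array 2. That p-value rests on a spread shared by genes of like signal and does not measure the SD of Gabrd itself. The limma adjusted p of Gabrd was 0.0535 without replicate 1 and 0.0888 without replicate 3. Gabre (5.44, 5.15 and 5.44), Gabrp (4.48, 4.36 and 4.48) and Gabrq (4.54 on each array), minor subunits, were under the level on each array.

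The called genes allowed 24 triples of an alpha, a beta and a gamma or delta subunit, of 30 such triples that the measured genes could give. Of another 30 triples with Gabre, Gabrp or Gabrq as the further subunit, 0 were possible, since none of these genes was above. They were Gabra2, Gabra3, Gabra4 or Gabra5 with Gabrb1 or Gabrb2 and with Gabrg1, Gabrg3 or Gabrd. The lowest margin of a triple's subunits on any array was 1.70 for Gabra2, Gabrb1 and Gabrg1, 1.57 with Gabra4 in place of Gabra2, 1.12 with Gabra3 and 0.98 with Gabra5. It was 0.58 or 0.60 for the other 12 without Gabrd, where Gabrb2 or Gabrg3 was the lowest. It was 0.04 for the 8 triples with Gabrd. Probes of different genes differ, so these margins show how secure the calls were and do not rank the receptors by amount. Without replicate 1, and without replicate 3, the Gabrd triples fell away and 16 were left, with 56.4% and 58.7% of all genes above (56.3% and 58.6% on every array). At the 99th-percentile level, with 44.9% of all genes above, 3 triples were left, Gabrb1 and Gabrg1 with Gabra2, Gabra3 or Gabra4. These counts rest on the genes measured, and triples that use other subunits were not analysed here.

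**Figure D2:**
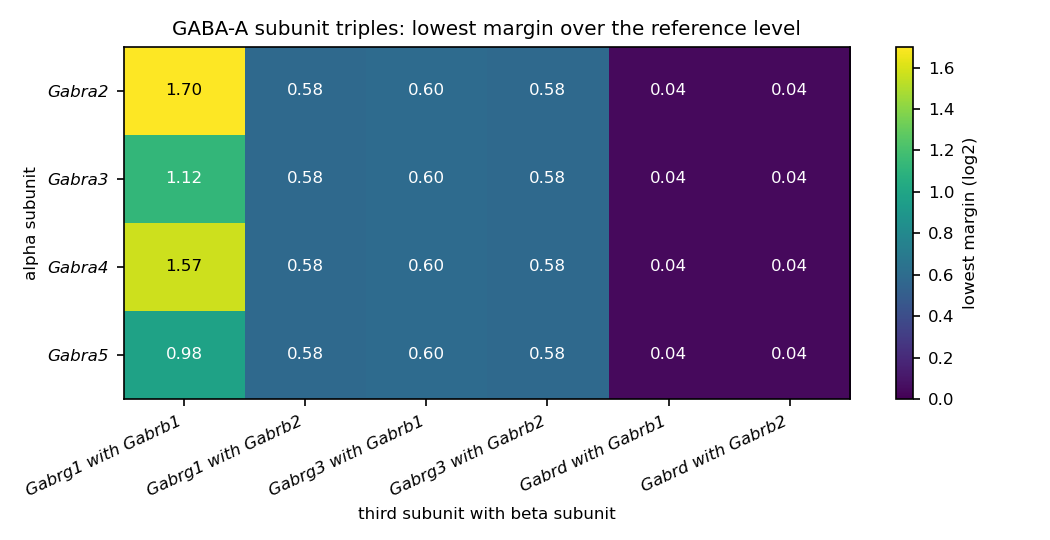
Lowest margin over the reference level (log2 units, over 3 subunits and 3 arrays) for each GABA-A triple; rows are alpha subunits, columns the further subunit with a beta subunit. The 4 triples of Gabrg1 with Gabrb1 lie between 0.98 and 1.70, and the 8 triples with Gabrd at 0.04. The margins do not rank the receptors by amount, because probes of different genes differ.

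Gabrg1, Gabra2, Gabra4 and Gabrb1 are neighbours on mouse chromosome 5. By the gene order of RefSeq (GRCm38.p6), at most 1 other protein-coding gene lies between members of this cluster. All 4 were above the reference level. Their promoters are printed because genes of a single cluster were called together, and because Gabrg1 differs from the others in CG content. Each window runs from 250 bases before the RefSeq start to 50 after it, is read 5′ to 3′ on the gene's strand and has each CG dinucleotide, the site of DNA methylation, in capitals. Gabrg1 lies at chr5:70842568-70842867 on the minus strand, Gabra2 at chr5:71095800-71096099 on the minus strand, Gabra4 at chr5:71658259-71658558 on the minus strand and Gabrb1 at chr5:71657671-71657970 on the plus strand.
Gabrg1: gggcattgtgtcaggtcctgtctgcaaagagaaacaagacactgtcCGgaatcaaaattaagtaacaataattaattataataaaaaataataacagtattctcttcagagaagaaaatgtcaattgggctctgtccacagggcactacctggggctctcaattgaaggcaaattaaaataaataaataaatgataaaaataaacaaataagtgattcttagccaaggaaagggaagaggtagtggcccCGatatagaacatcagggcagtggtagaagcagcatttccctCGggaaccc
Gabra2: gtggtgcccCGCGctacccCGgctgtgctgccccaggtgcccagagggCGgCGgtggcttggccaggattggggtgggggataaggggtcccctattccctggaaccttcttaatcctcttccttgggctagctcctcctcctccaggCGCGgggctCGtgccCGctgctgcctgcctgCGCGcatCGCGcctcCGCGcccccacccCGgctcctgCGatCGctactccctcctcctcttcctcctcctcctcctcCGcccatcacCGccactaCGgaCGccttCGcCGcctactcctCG
Gabra4: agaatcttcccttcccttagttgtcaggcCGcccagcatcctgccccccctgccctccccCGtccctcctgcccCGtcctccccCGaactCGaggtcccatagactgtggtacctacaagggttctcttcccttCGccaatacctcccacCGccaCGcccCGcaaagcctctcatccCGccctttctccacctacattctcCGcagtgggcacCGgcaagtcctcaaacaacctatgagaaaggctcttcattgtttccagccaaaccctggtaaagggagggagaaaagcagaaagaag
Gabrb1: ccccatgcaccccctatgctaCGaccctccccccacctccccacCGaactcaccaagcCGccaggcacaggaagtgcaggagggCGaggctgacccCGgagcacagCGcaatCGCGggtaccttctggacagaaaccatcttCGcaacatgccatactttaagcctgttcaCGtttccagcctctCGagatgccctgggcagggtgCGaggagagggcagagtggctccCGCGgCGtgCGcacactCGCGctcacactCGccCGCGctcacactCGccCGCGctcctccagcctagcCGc
The Gabrg1 window held 3 CG dinucleotides and had 38.3% G and C. Gabra2 held 25 (70.0% G and C), Gabra4 12 (58.7%) and Gabrb1 25 (66.0%). The table lists a second start for Gabrb1, and the first was used. The calls of all 4 genes were kept under each of the 12 alternatives, some of which could not change them. The CG-poor window and the CG-rich ones thus belonged to genes with the same call.

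In all 7 groups of neighbouring receptor-series genes, the chromosome 5 cluster included, with 17 members, 12 genes were above (70.6%), beside 59.1% of all genes and 61.7% of the 47 receptor-series genes. Without the chromosome 5 cluster 8 of 13 were above (61.5%), a share near both. Gabrg3 and Gabra5 were both above, as were Gria2 and Glrb, which lie next to each other on chromosome 3. On chromosome 11 Gabrb2 was above and its neighbour Gabra6 was not. On the X chromosome Gabra3 was above between Gabre and Gabrq, which were not. Gabrr2 was above and its neighbour Gabrr1 was not, and Gria1 was above while Glra1, separated from it by 1 gene, was not.

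The rho subunits form GABA-gated chloride channels of their own, best known from the retina. Gabrr2 had 5.92, 5.86 and 6.00 and was above by 0.30 ± 0.0224 (limma adjusted p = 8.61e-05), a call that ended at the 99th-percentile level. Gabrr1 (4.70 on each array) and Gabrr3 (4.27, 4.27 and 4.57) were under the level. GABA-B receptors, which act through G proteins, need both of their subunits, the GABA-binding Gabbr1 and the signalling partner Gabbr2. Gabbr1 had 10.70 on each array and Gabbr2 had 7.65, 7.65 and 7.64, with margins of 5.08 ± 0.0905 and 2.02 ± 0.0977. The complete GABA-B pair was therefore possible on all 3 arrays, under each of the 12 alternatives of processing. Some of these alternatives, such as centring arrays on their median, could not change the calls.

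Glycine receptors showed an unmatched subunit. Glrb, the beta subunit that ties the receptor to its scaffold gephyrin and forms no channel alone, had 10.73 on each array (margin 5.11 ± 0.0903). The 4 alpha subunits, 1 of which every channel of this receptor family needs, were all under the reference level on all 3 arrays. Glra1 had 4.73, 4.73 and 4.94, Glra2, the form of the fetal brain, 3.68 on each array, Glra3 4.49, 4.46 and 4.46, and Glra4 5.44 on each array. No glycine receptor combination was therefore possible from the genes called, of 4 alpha-only and 4 mixed forms. At the 90th-percentile level Glra4 alone passed (margin 0.17, limma adjusted p = 0.0103), which would allow 1 alpha-only and 1 mixed form. Of the 5 glycine receptor genes 1 was above, beside 59.1% of all genes.

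The promoters of Glrb and of the alpha subunit gene Glra2 are printed to set the called gene of that family beside an uncalled one. Glrb lies at chr3:80913611-80913910 on the minus strand and Glra2 at chrX:165327344-165327643 on the minus strand, with the same window and CG in capitals.
Glrb: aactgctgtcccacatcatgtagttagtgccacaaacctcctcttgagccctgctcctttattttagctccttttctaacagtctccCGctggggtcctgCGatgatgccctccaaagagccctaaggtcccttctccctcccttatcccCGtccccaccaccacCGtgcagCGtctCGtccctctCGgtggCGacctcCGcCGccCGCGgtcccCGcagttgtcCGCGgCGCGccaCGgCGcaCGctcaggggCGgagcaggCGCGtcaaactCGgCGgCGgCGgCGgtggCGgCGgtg
Glra2: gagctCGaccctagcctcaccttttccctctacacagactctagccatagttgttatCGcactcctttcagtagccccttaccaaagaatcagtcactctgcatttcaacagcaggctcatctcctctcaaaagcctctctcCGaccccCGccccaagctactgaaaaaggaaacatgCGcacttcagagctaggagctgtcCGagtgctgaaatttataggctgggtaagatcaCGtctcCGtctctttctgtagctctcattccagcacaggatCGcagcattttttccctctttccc
The Glrb window held 30 CG dinucleotides (65.7% G and C) and the Glra2 window 9 (50.3%). Counted on both strands, the Glra2 window contained TATAAA and GGGCGG 1 time each, and the Glrb window GGGCGG 2 times and no TATAAA.

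Promoter windows were found for 36 of the 47 genes. The median window of the 22 genes above the reference level held 15.5 CG dinucleotides, that of the 14 not above 9. Over 16918 genes on the array with a window the medians were 21 and 3. The median of receptor genes not above was thus higher than that of all genes not above, and the ranges of both receptor groups overlapped widely (0 to 50 and 2 to 33). Grm8, with 33 CG dinucleotides, was under the level on each array, and Gabrg1, with 3, over it on each array. The GC box GGGCGG, searched on both strands, was found in 13 of the 22 windows above (59.1%) and in 8 of the 14 not above (57.1%), against 64.8% and 19.2% of all genes above and not above. TATAAA was found in 11.1% of receptor windows and 12.9% of all. The half-site TTCAGCACC of the neuronal gene repressor REST was found in the Grm2 window alone (2.78% of receptor windows, 0.414% of all). The full palindrome of nuclear factor I was found in no receptor window and in 0.0355% of all. All of these motifs were searched on both strands, none contains another, and each GC box holds a CG counted above. A match is a run of letters and not a binding site.

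**Figure D3:**
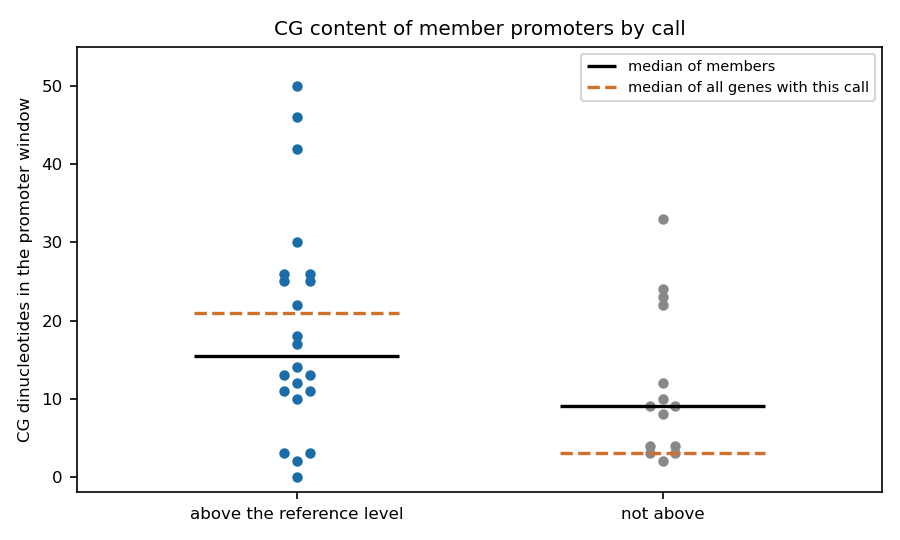
Number of CG dinucleotides in the 300-base promoter window of 36 receptor-series genes, split by the call; each point is a gene, black lines are medians of these genes (15.5 and 9) and dashed lines medians of all genes with that call (21 and 3). The 2 groups of points overlap.

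Partner genes of the receptors were described from lists of their accessory subunits, scaffolds, ligands and transporters. Like the marker lists, they were chosen with earlier results of these data known, so their counts are no independent check. Of 73 measured partner genes 60 (82.2%) were above the reference level, beside 59.1% of all genes. Of 12 auxiliary subunits, which slow or boost AMPA currents, 11 were above, among them Cacng2 (5.91 on each array), Cacng4 (9.46, 9.46 and 9.41), Cacng5 (7.57, 7.60 and 7.57) and Cacng7 (12.09, 12.09 and 12.06), and Cacng3 (5.50 on each array) was not. Both kainate receptor partners, Neto1 (9.58, 9.58 and 9.53) and Neto2 (10.54 on each array), were above. All 3 listed genes of the editing enzyme family were above, and whether each product edits RNA was not tested. Adarb1 (7.81, 7.85 and 7.81) encodes the enzyme that recodes the Gria2 transcript, Adar had 8.11, 8.11 and 8.10, and Adarb2 had 5.85.

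Scaffold genes were mostly called for both kinds of receptor, beside 59.1% of all genes above the reference level. Of 15 measured glutamate receptor scaffold and trafficking genes 13 were above, including Dlg1 (9.88, 9.92 and 9.87), Dlg3 (mean 8.05 ± 0.072, SD, n = 3), Dlg4 (8.31 on each array) and Shank1 (6.18, 6.18 and 6.12), while Dlg2 (4.75 on each array) and Grip2 (5.44, 5.40 and 5.44) were not. All 7 measured GABA-A and glycine receptor partners were above, including gephyrin (Gphn, 10.23 on each array), the scaffold that holds GABA-A and glycine receptors at synapses, Nlgn2 (10.46, 10.46 and 10.43), and the assembly partners Lhfpl4 (7.63 on each array) and Lhfpl3 (10.27 on each array). Of the 4 GABA-B auxiliary subunits Kctd12 (7.50, 7.67 and 7.42) and Kctd12b (6.65, 6.75 and 6.65) were above and Kctd8 (5.47, 5.47 and 5.77) and Kctd16 (4.94, 4.94 and 5.08) were not. Of the 4 cerebellins, the ligands of delta receptors, Cbln2 (8.57, 8.57 and 8.59) was above, and Cbln1 (5.70 on each array), Cbln3 (5.73 on each array) and Cbln4 (5.53 on each array) were not.

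**Figure D4:**
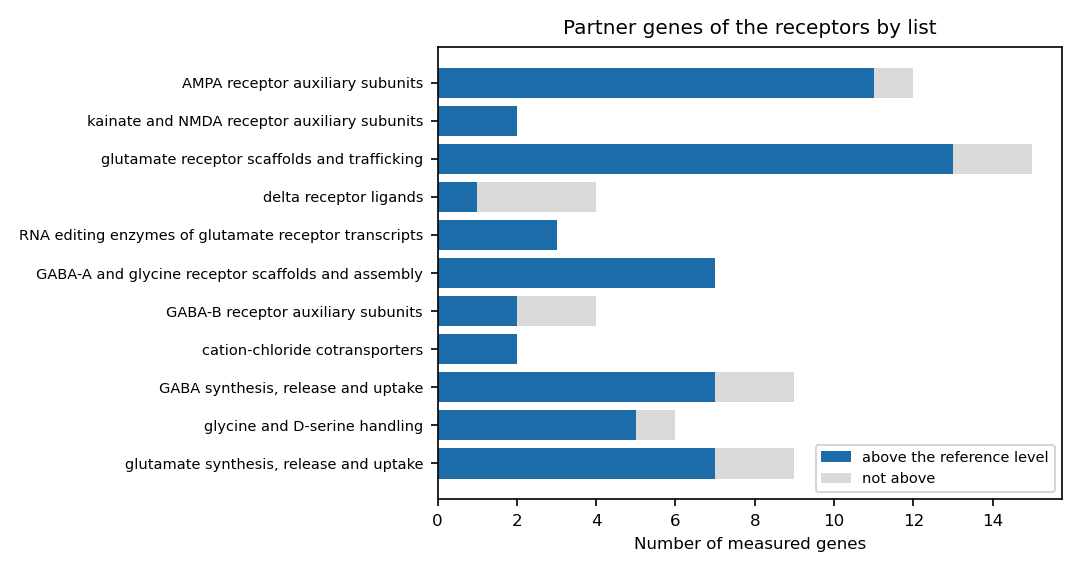
Number of measured partner genes above the reference level (blue) and not above (grey) in each of 11 lists. AMPA auxiliary subunits had 11 of 12 above, and delta receptor ligands 1 of 4, beside 59.1% of all genes.

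The transmitters themselves were covered by synthesis and transport genes, whose counts stand beside 59.1% of all genes above the reference level. Of 9 measured GABA genes 7 were above, among them the GABA-synthesising Gad1 (6.77, 6.77 and 6.66) and Gad2 (7.80, 7.80 and 7.68), the vesicular transporter Slc32a1 (5.95, 5.95 and 6.05) and the glial GABA transporter Slc6a11 (12.19 on each array), while Slc6a13 (5.25 on each array) and Slc6a12 (5.23, 5.10 and 5.29) were not. Of 9 glutamate genes 7 were above, including the uptake transporters Slc1a1 (11.32 on each array), Slc1a2 (8.83 on each array) and Slc1a3 (12.61, 12.62 and 12.58) and the vesicular transporter Slc17a8 (6.04, 6.04 and 6.11). The vesicular transporters of most excitatory neurons, Slc17a6 (5.18, 5.08 and 5.31) and Slc17a7 (5.03, 5.03 and 5.32), were not above. Of 6 glycine and D-serine genes 5 were above, including the serine racemase Srr (10.67, 10.67 and 10.64), Shmt1 (6.46, 6.49 and 6.46), Shmt2 (11.00 on each array) and the neuronal glycine transporter Slc6a5 (5.85, 5.75 and 5.93), and Dao (4.88 on each array) was not.

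The chloride gradient decides whether GABA-A and glycine channels excite or inhibit a cell. Slc12a2, which loads cells with chloride, had 10.53 on each array, and Slc12a5, the neuronal exporter, 5.90. Both were above, the second close to the level, and the signals cannot be set against each other because their probes differ. Without replicate 1 the calls of Slc12a5, Cacng2, Adarb2 and Slc6a5 ended, with limma adjusted p-values of 0.0624, 0.0552, 0.12 and 0.138 in that order. Of all genes 56.4% were above without replicate 1. At the 99th-percentile level 45 of the 73 measured partner genes were above, beside 44.9% of all genes. Of those named, the calls of Slc12a5, Cacng2, Adarb2, Slc6a5, Shank1, Kctd12b, Gad1, Slc32a1, Slc17a8 and Shmt1 ended at that level. The call of Slc32a1 also ended with the median over probe sets.

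The 3 arrays differed little over the receptor genes. The median SD was 0.0090 for the 47 genes and 0.0204 for all genes. Exactly equal values on all 3 arrays were found for 19 of the 47 genes (40.4%) and for 39.4% of all genes, so an SD of 0 understates the true spread. The widest spreads after Gabrd were those of Gabrb1 (SD 0.228), Grm6 (0.207) and Gabra4 (0.191). Of the 9 receptor genes above the level with 3 different values, 6 were highest on array 2 and lowest on array 3, among them Gabra2, Gabra4 and Gabrb1. The same order held for 67% of 3570 such genes over the whole array. Gabrd and Gabrr2 had the opposite order, highest on array 3 and lowest on array 2, which is also the order of the reference levels. Among genes not above the level with 3 different values, 62.9% of 1964 had that order.

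In all, 46 combinations were possible on all 3 arrays, of 102 that the measured genes could give under the same assembly rules, the triples with Gabre, Gabrp or Gabrq included. They comprised 10 AMPA, 7 kainate, 1 delta, 24 GABA-A, 1 rho, 1 GABA-B and 2 metabotropic forms, and 0 of glycine receptors. At the 99th-percentile level 19 genes and 20 combinations were left, and with a reference of bitter taste receptor, keratin-associated protein and defensin genes 18 genes and 19 combinations. Under these alternatives 44.9% and 43.5% of all genes were above. The call was kept under each of the 12 alternatives by 18 genes above the level (Gria2, Gria3, Gria4, Grik2, Grik3, Grik4, Grik5, Grid1, Grin3a, Grm3, Grm5, Gabra2, Gabra4, Gabrb1, Gabrg1, Gabbr1, Gabbr2 and Glrb). It was also kept by 12 not above, where a filter on low values left all but Gabre untested. Some alternatives could not change these calls. Centring arrays on their median shifts a gene and its reference level alike, and each of the 18 genes had 1 probe set. A combination says that its transcripts were called in the same cultures, and not that a cell held them together or made the protein.

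**Figure D5:**
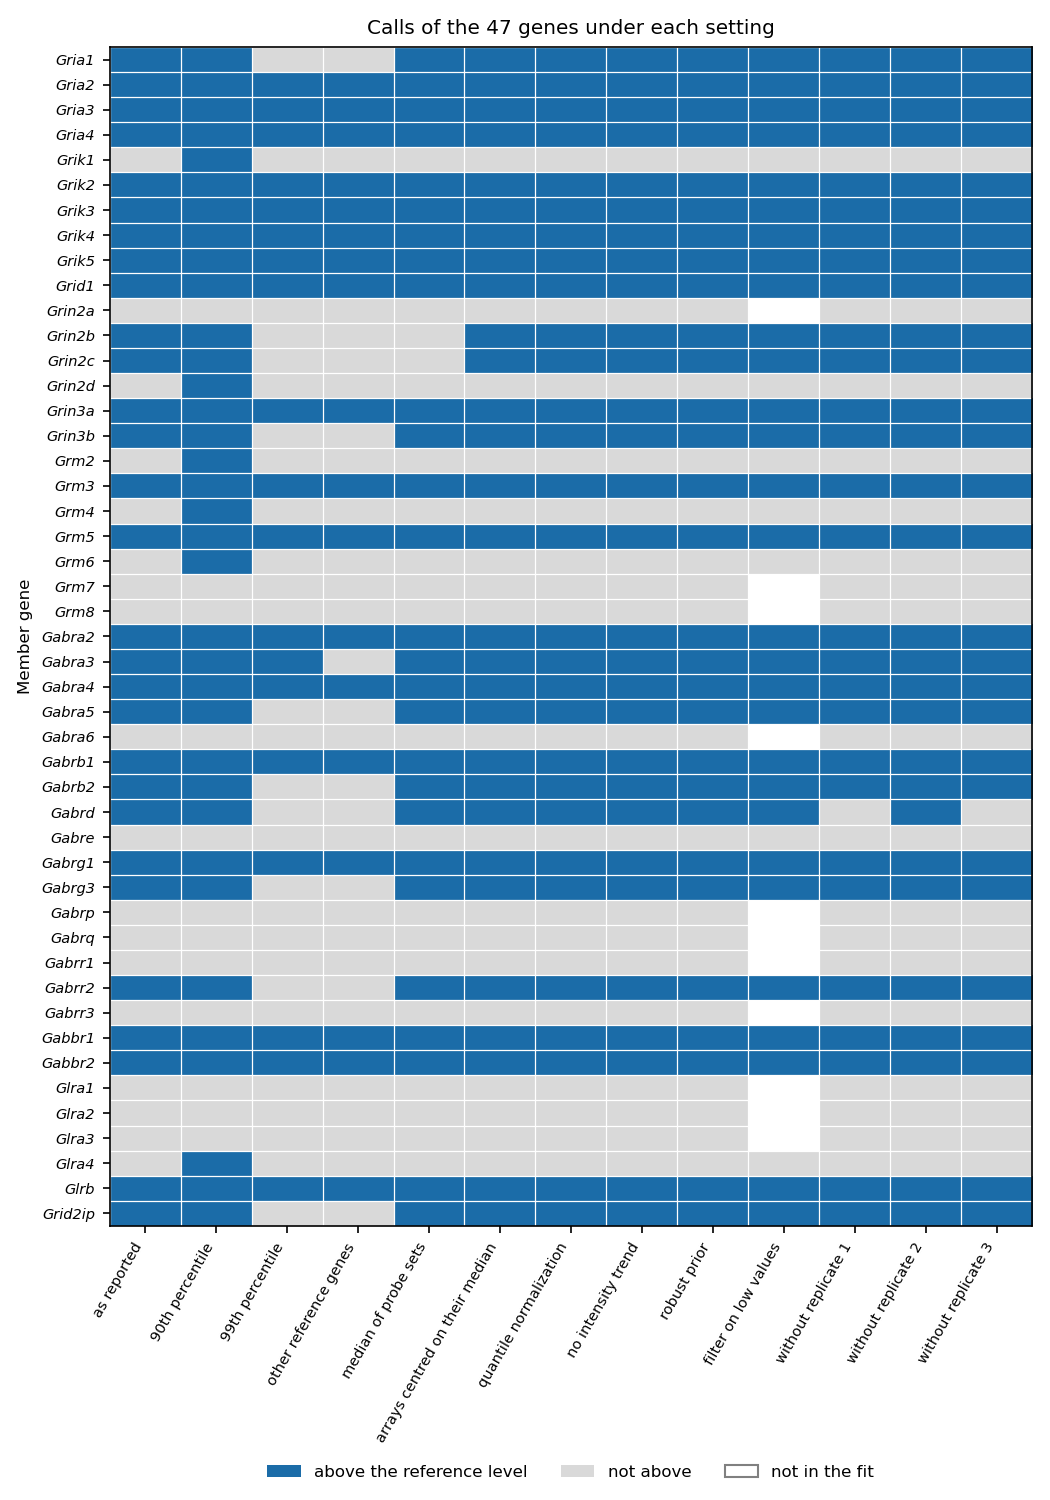
Call of each receptor-series gene (rows) as reported and under 12 alternatives (columns); blue is above the reference level, grey not above and white not in the fit. Changes of call gather in the columns of the 90th percentile, the 99th percentile and the other reference genes.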

How the data were processed

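Expression was measured on 3 arrays. The authors deposited log2 values, which the submitters' processing notes tie to RMA, a method of background correction, between-array normalisation and probe summary. Its version and options are not given in the sources used here. Such normalisation can leave equal values on several arrays. Gene symbols came from GEO's annotation of the platform, which can be old: 23521 probe sets had 1 symbol, 1814 several and 16010 none. The probe set with the highest mean was used per gene, and 5 receptor genes had several. The array's reference level was subtracted, and limma 3.58.1 in R 4.3.3 fitted an intercept (eBayes with an intensity trend, one-sided test, Benjamini-Hochberg over 22180 genes). Its prior degrees of freedom were infinite, so genes of like signal shared 1 spread. The test was tried on simulated data where genes without signal lay well under the level. Such data cannot show how often genes near the level are called falsely. Alternatives changed the reference, probe set, scaling, model and filter, and left out each replicate. Promoters came from RefSeq (GRCm38.p6). The number of arrays, 3, limits the precision. Members and lists were chosen with earlier results of these data known. Every gene of the symbol rule was accounted for, and of each partner list up to 4 genes above and 4 not above were named, in list order. Figures used matplotlib 3.10.9.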

Additional observations from a re-analysis of the deposited data

How the results depend on the processing

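No paired analysis was possible because the series has 1 group. The counts of genes and of combinations moved most with the choice of reference. So did the share of all genes above, which was 59.1% as reported, 44.9% at the 99th-percentile level and 66.7% at the 90th. With the reference of bitter taste receptor, keratin-associated protein and defensin genes it was 43.5%. At the 99th-percentile level, 19 receptor-series genes were above the level (19 on every array), 7 of them GABA receptor genes, 0 of them outside the receptors, and 20 combinations were possible, with 3 AMPA pairs, 3 GABA-A triples and 0 rho forms. With bitter taste receptor, keratin-associated protein and defensin genes as the other reference these counts were 18, 18, 6, 0, 19, 3, 2 and 0. With the 90th percentile, 5 metabotropic and 2 glycine receptor genes were above, with 5 metabotropic dimers, 3 kainate pairs, 1 alpha-only and 1 mixed glycine form. Without single replicates, 28 to 29 receptor-series genes, 38 to 46 combinations and 16 to 24 GABA-A triples were counted, and 56 to 60 partner genes. Of all genes 56.4%, 58.4% and 58.7% were above without replicate 1, 2 and 3 in turn.

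Margins turned negative with the 99th percentile and with the other reference genes for Gabrb2 (-0.11 and -0.15), Gabrd (-0.49 and -0.53), Gabrg3 (-0.091 and -0.127), Gabrr2 (-0.47 and -0.51), Gria1 (-0.45 and -0.48), Grid2ip (-0.47 and -0.51), Grin2b (-0.21 and -0.25) and Grin3b (-0.38 and -0.42). With the median of probe sets they did so for Grin2b (-0.18) and Grin2c (-0.14). With the 90th percentile, margins turned positive and passed for Glra4 (0.17), Grik1 (0.20), Grin2d (0.33) and Grm4 (0.28). A stricter or laxer level moves calls of genes near it by construction. The filter on low values left 11 receptor-series genes out of the fit, all of them not above. Signal over the reference level is what limits these calls, and a gene not above may still be transcribed.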
